A study of Mus musculus with 3 samples.

Results

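Acyl-CoA synthetases are the enzymes that join a carboxylic acid to coenzyme A, the step a fatty acid has to pass before it can be oxidised, elongated or built into a lipid. The measurements below concern 8 mouse genes of this kind, Acsm3, Acsm5, Acsl1, Acsl3, Acsl4, Acsl5, Acss1 and Acss3, matched by symbol to the probes of a gene expression array. The genes were chosen from earlier results on these same arrays, in which Acsm3 was low on both high-fat diet arrays, so their levels are given as a description and not as a test. A probe was named here for 7 of the 8 genes and 6 had at least 1 detected probe, out of 10603 genes with a detected probe on the array. Acsl1 had no probe named here and was not analysed here.

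The RNA came from visceral (perigonadal) white adipose tissue of C57BL/6JRj mice and was hybridised to 3 Illumina bead arrays, 1 for each group. Their age was 28 weeks according to the sample labels, but the diet and injection periods of the methods add up to an older one. The lean group, called chow here, carries a low-fat diet with vehicle in its label, while the methods speak of regular chow. The HFD-Ve group received a high-fat diet and vehicle, and the HFD-Rapa group received the same diet and weekly injections of rapamycin, which blocks mTOR complex signalling, at 2 mg/kg over 22 weeks. Per the methods, each array carried RNA pooled from 5 mice. The study used mice of both sexes, and the sex of the mice in each pool is not given in the sources used here. With 1 array for each group there was no measure of the spread between animals, so no test was made and no value below carries an SD or a p-value for a difference. The only repeat measure was between probes of a gene. Over 3941 genes with several detected probes, the log2 differences of these probes had an SD of 0.32 for HFD-Ve against chow, 0.38 for HFD-Rapa against chow and 0.21 for HFD-Rapa against HFD-Ve. This spread covers differences between probes on the same arrays. It leaves out the difference between mice and any error shared by all probes of an array.

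Levels are background-corrected, quantile-normalised signals on the log2 scale, and a probe was called detected where its detection p-value on that array was under 0.01. Of 45281 probes, 16951, 17561 and 17966 were detected on the chow, HFD-Ve and HFD-Rapa arrays. Of 10 adipocyte markers 9 were measured, and these were detected on every array except Retn, which was not detected on HFD-Rapa. The summed signal of these 9 was 92386, 89861 and 70577 on the chow, HFD-Ve and HFD-Rapa arrays, while that of 9 measured macrophage markers was 10437, 41124 and 57704. Leptin (Lep), at 18732, 30831 and 29107, was higher on both HFD arrays. Without Lep, a step chosen after seeing the data, the adipocyte sum was 73654, 59030 and 41470. Hence the summed macrophage signal was higher, and the summed adipocyte signal apart from Lep lower, on both HFD arrays. In HFD-Ve the single adipocyte markers were mixed. Adipoq, Plin1, Pnpla2, Retn and Slc2a4 were below chow, while Cidec, Lipe and Fabp4 were level or slightly higher (log2 differences of 0.08, 0.18 and 0.03). The 5 measured endothelial markers summed to 3789, 3404 and 1953 and the 5 mesothelial markers to 5867, 3078 and 5000, so the endothelial signal was lowest in HFD-Rapa and the mesothelial signal was lowest in HFD-Ve. In whole tissue, fewer cells of a type and less RNA per cell cannot be told apart. Of 6 epididymal markers and 6 ovarian markers, 1 each was measured. The Y-linked genes Eif2s3y, Kdm5d and Uty were detected on all 3 arrays and Xist on none.

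The family is divided by the chain length of the acid. The ACSM enzymes act on medium-chain acids in the mitochondrial matrix and are best known from liver and kidney. The ACSL enzymes act on long-chain fatty acids at the endoplasmic reticulum, mitochondria and lipid droplets, and in adipocytes they feed triglyceride synthesis. The ACSS enzymes act on short-chain acids such as acetate and propionate.

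The 250 bases before the start of the 3 members that were lower on both HFD arrays are shown from the RefSeq sequences on GRCm38.p6, each on the plus strand, with a CCAAT box (CCAAT), an E box (CACGTG) or a GC box (GGGCGG) on either strand in capitals. In Acsl3 the final capital run joins a CCAAT and a GGGCGG that do not overlap, and a GC box on the other strand reads CCGCCC.
Acsm3, chr7:119760673-119760922: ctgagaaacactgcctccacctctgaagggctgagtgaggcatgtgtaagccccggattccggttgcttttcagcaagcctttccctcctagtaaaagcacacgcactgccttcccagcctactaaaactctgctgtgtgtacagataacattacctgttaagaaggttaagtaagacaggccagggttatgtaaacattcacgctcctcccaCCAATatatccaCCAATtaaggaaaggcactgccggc
Acsm5, chr7:119526015-119526264: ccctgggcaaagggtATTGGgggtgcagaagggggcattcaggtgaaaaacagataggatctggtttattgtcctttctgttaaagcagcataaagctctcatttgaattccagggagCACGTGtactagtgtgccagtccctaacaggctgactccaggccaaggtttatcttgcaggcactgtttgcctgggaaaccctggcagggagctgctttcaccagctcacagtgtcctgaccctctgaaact
Acsl3, chr1:78657575-78657824: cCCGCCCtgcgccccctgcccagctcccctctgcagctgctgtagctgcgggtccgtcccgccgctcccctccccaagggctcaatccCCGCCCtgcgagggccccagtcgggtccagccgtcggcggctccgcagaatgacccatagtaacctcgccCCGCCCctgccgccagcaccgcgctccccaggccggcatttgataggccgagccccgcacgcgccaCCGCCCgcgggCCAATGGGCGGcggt

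The Acsm3 window held 2 CCAAT matches, at 37 to 33 and 25 to 21 bases before the start, and no E box or GC box. The Acsm5 window held 1 CCAAT match on the other strand, at 235 to 231 bases, and 1 E box at 132 to 127 bases. The Acsl3 window held 5 GC boxes and 1 CCAAT match at 15 to 11 bases. Its GC content of 75.6% stood above the 49.2% of Acsm3 and the 51.2% of Acsm5, with a median of 52.4% over 32851 promoters. Of these promoters, 33.9% held a CCAAT, 6.02% a CACGTG and 32.7% a GGGCGG. No window held a TATA box (TATAAA), present in 12.4% of promoters, a nuclear receptor half-site (AGGTCA), present in 14.0%, or a steroid receptor half-site (AGAACA), present in 16.1%. A match of letters is a description and not a binding site.

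Acsm3, a mitochondrial medium-chain acyl-CoA synthetase, was high on chow and near the background on both HFD arrays. Its brightest probe, ILMN_3111685, gave a log2 signal of 11.39 for chow, 6.52 for HFD-Ve and 5.86 for HFD-Rapa, and was detected on all 3. Before normalisation the deposited intensities of this probe were 2550, 182 and 136. The gene was thus 29.3-fold lower in HFD-Ve than in chow and 46.2-fold lower in HFD-Rapa than in chow. These folds depend on the processing, and the log2 differences of -4.87 and -5.53 became -4.04 and -4.36 without background correction, -4.04 and -4.35 with the authors' processed values, and -3.85 and -4.26 with the mean of the kept probes. The difference from chow of -4.87 in HFD-Ve was the lowest of the 10603 genes, and that of -5.53 in HFD-Rapa was the second lowest. The 2 comparisons share the chow array and are not independent.

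A further probe, ILMN_1244261, gave 11.08, 6.12 and 5.52 on the same arrays. It was also detected on all 3, and its signal was 31.1-fold lower in HFD-Ve and 47.1-fold lower in HFD-Rapa than in chow. The log2 differences of this probe from chow, -4.96 and -5.56, lay closer to those of the former probe than the spread between probes of a gene. ILMN_3075043, drawn from another transcript record of the gene, gave 6.08 on chow and was not detected in HFD-Ve (4.37) or HFD-Rapa (4.38). Against the lowest detected signals it was at least 1.67-fold lower in HFD-Ve and at least 1.76-fold lower in HFD-Rapa. The remaining probes, ILMN_2549092 (4.88, 4.86 and 4.49) and ILMN_1247231 (4.37, 4.32 and 4.38), were detected on no array and so give no direction. Hence 3 of 5 probes were detected on chow, and each of these 3 was lower on both HFD arrays.

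Between the HFD arrays the difference in Acsm3 was small beside the one from chow. The log2 difference of HFD-Rapa from HFD-Ve was -0.66 (1.58-fold) at ILMN_3111685 and -0.60 (1.51-fold) at ILMN_1244261, just past the 1.5-fold threshold, and it ranked 646th from the lowest of 10603. The 1.5-fold call was lost without background correction (-0.32), with the authors' processed values (-0.31), with an offset of 50 (-0.45) and with the mean of the kept probes (-0.41), all of which kept the sign.

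**Figure D1:**
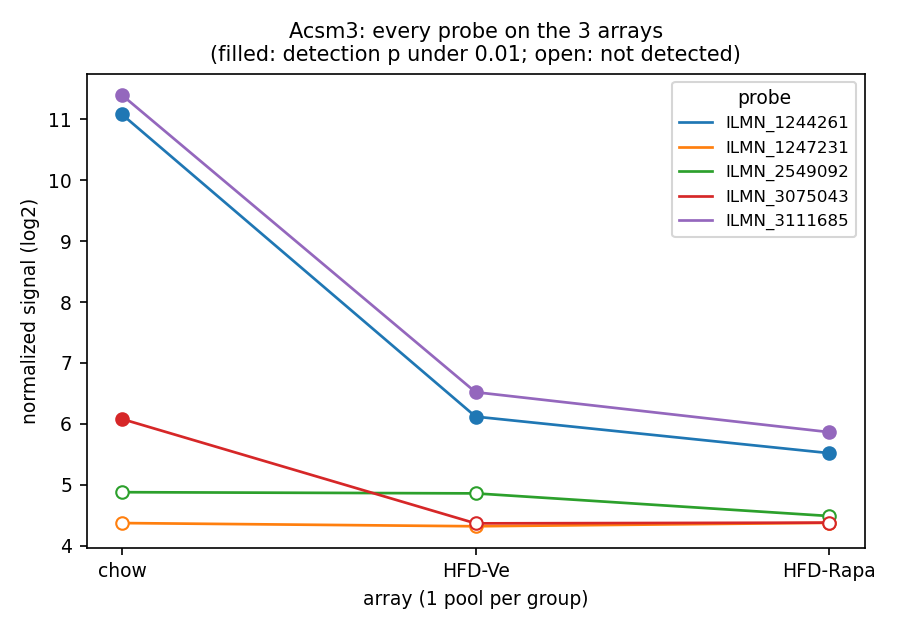
Normalised log2 signal of the 5 Acsm3 probes (vertical axis) on the chow, HFD-Ve and HFD-Rapa arrays (horizontal axis, 1 pool each), filled where detected and open where not. ILMN_3111685 and ILMN_1244261 run almost in parallel from 11.39 and 11.08 on chow to 6.52 and 6.12 on HFD-Ve, and the other 3 probes lie at or below 6.08.

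Acsm5, another medium-chain synthetase, was lower in HFD-Ve than in chow and below detection in HFD-Rapa. ILMN_1220520 gave 8.20 on chow and 6.49 on HFD-Ve and was not detected on HFD-Rapa (4.86). It was 3.26-fold lower in HFD-Ve than in chow, a log2 difference of -1.70 and the 85th lowest of 10603. In HFD-Rapa it was at least 7.66-fold lower than in chow and at least 2.35-fold lower than in HFD-Ve. These bounds hold for this background correction alone, since the log2 differences of HFD-Rapa were -1.83 from chow and -0.67 from HFD-Ve without it, and -1.80 and -0.66 with the authors' processed values. The other probe, ILMN_2658072, was dim and was detected on chow alone, at 5.60 against 5.02 and 4.44, which gives bounds of at least 1.20-fold lower in HFD-Ve and at least 1.27-fold lower in HFD-Rapa. Both probes therefore ran in the same direction after processing. The deposited intensities of ILMN_2658072 were 113 on chow, 115 on HFD-Ve and 94.0 on HFD-Rapa, so its direction in HFD-Ve rests on the processing.

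Acsl3, which activates long-chain fatty acids at the endoplasmic reticulum and on growing lipid droplets, was lower on both HFD arrays by a smaller margin. Its detected probe, ILMN_3138743, gave 9.53 on chow, 8.70 on HFD-Ve and 8.49 on HFD-Rapa. These levels were 1.77-fold lower in HFD-Ve and 2.05-fold lower in HFD-Rapa than in chow. The step between the HFD arrays was 1.16-fold, a log2 difference of -0.21, about the size of the spread between probes of a gene. The other 2 Acsl3 probes were detected on no array.

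Acsl4, the enzyme with a preference for arachidonate, differed by probe. The brightest probe, ILMN_3136205, gave 6.87, 6.76 and 6.82 on the chow, HFD-Ve and HFD-Rapa arrays, log2 differences from chow of -0.10 and -0.05. ILMN_1244872 gave 5.93, 6.29 and 6.46, so it was higher than chow by 0.36 and 0.53 on the log2 scale. ILMN_2690135 was not detected on chow and gave 5.42 and 5.62 on the HFD arrays (deposited intensities 99.1, 127 and 128), at least 1.10-fold higher in HFD-Rapa. Since these probes disagree in sign, Acsl4 has no settled direction from chow. The sign of the brightest probe also turned under median scaling (0.13 in HFD-Ve and 0.08 in HFD-Rapa).

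Acsl5, a long-chain synthetase of mitochondria and endoplasmic reticulum, was slightly higher on both HFD arrays. ILMN_2892222 gave 11.66, 11.88 and 12.11 on the chow, HFD-Ve and HFD-Rapa arrays, which is 1.17-fold higher in HFD-Ve and 1.37-fold higher in HFD-Rapa than in chow. ILMN_2892227 gave 10.10, 10.34 and 10.56, with log2 differences from chow of 0.24 and 0.46 against 0.23 and 0.45 at the former probe. The 2 probes ran alike, and neither passed 1.5-fold. Their differences in HFD-Ve were smaller than the spread between probes of a gene (0.32), and those in HFD-Rapa were not far above it (0.38). ILMN_2451718 was dim, at 5.47, 5.60 and 5.52, and was not detected on chow.

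The short-chain members gave no call. Acss1, the mitochondrial acetyl-CoA synthetase, gave 9.54, 9.34 and 9.50 at ILMN_2628174. The largest difference between any pair of arrays was 1.15-fold, and the sign of its differences from chow turned under median scaling (0.02 and 0.05 on the log2 scale). Acss3, which acts on propionate in mitochondria, was detected on no array at its probe ILMN_1236250 (4.26, 4.37 and 4.30). This leaves Acss3 without a direction.

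**Figure D2:**
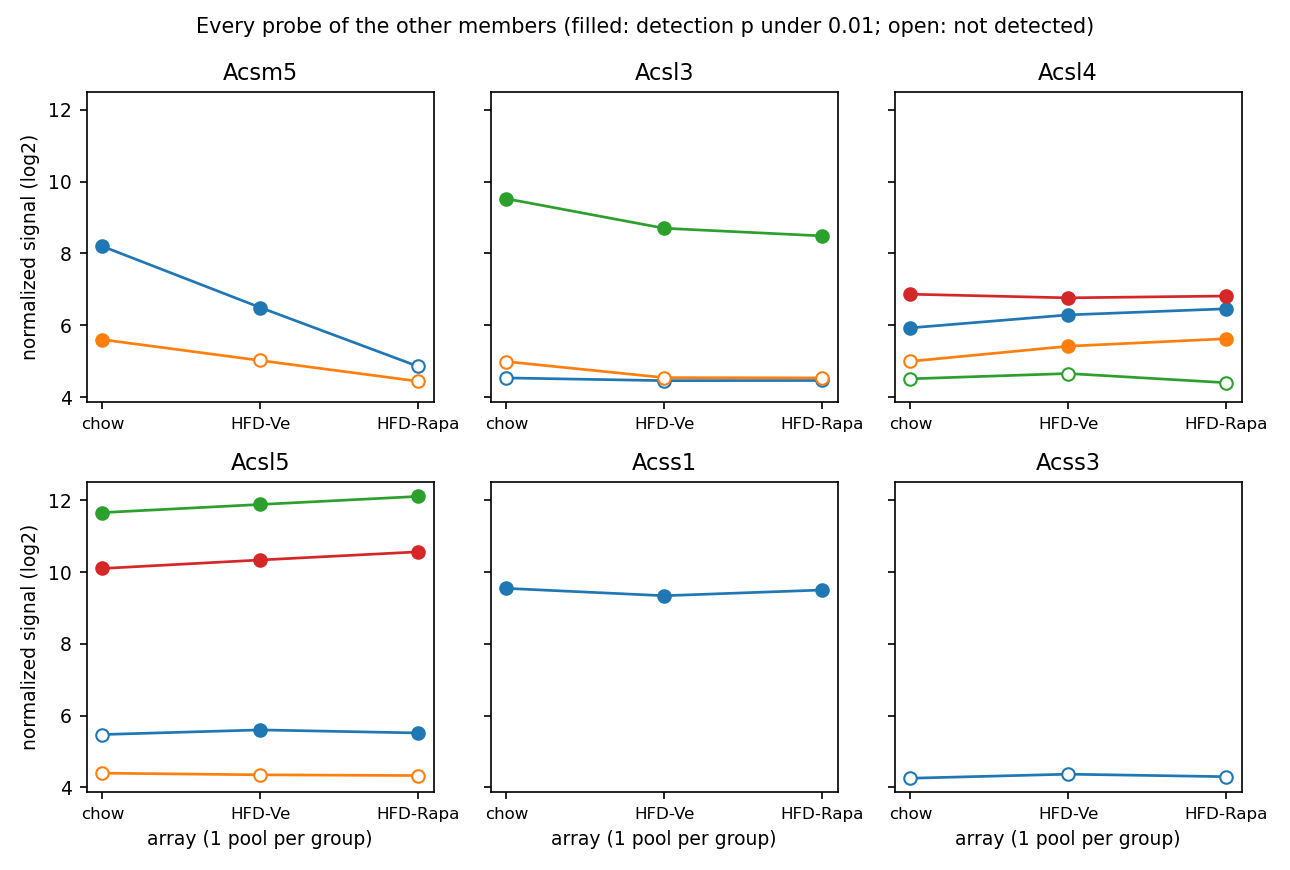
Normalised log2 signal (vertical axis, shared) of every probe of Acsm5, Acsl3, Acsl4, Acsl5, Acss1 and Acss3 on the 3 arrays (horizontal axis, 1 pool each), filled where detected and open where not. The brighter Acsm5 probe goes from 8.20 to 6.49 and then below detection, Acsl3 goes from 9.53 to 8.70 and 8.49, and the bright probes of Acsl5 and Acss1 stay nearly level.

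Counted together, 3 of the 6 measured genes (Acsm3, Acsm5 and Acsl3) were at least 1.5-fold lower in HFD-Ve than in chow and none was higher, while 11.7% of all 10603 genes were lower and 15.1% higher. Their median log2 difference was -0.51, against -0.05 over all genes. In HFD-Rapa against chow the same 3 genes were lower and none higher, with 19.5% of all genes lower and 20.5% higher and medians of -0.54 and -0.04. In HFD-Rapa against HFD-Ve, Acsm3 and Acsm5 were lower and none higher, with 7.56% of all genes lower and 8.55% higher and medians of -0.08 and 0.02. Under median scaling the members called were as many, 3, 3 and 2, but of all calls 76.8% were higher in HFD-Ve against chow, where 56.3% were in the values above, and 36.0% in place of 53.1% between the HFD arrays. Since the genes were chosen from earlier results on these arrays, nothing is read from these shares. In HFD-Rapa these 3 genes were lower beside a lower adipocyte sum, and in HFD-Ve they were lower beside an adipocyte sum of 89861 against 92386 on chow, or 59030 against 73654 without Lep. Of the 9 adipocyte markers, 4 were lower in HFD-Ve than in chow (Plin1, Pnpla2, Retn and Slc2a4) and 1 higher (Lep), with a median of -0.20, and 6 were lower and 1 higher in HFD-Rapa, with a median of -0.93. Of the 5 endothelial markers none was called in HFD-Ve and all 5 were lower in HFD-Rapa, and of the 5 mesothelial markers 3 were lower in HFD-Ve. The part of cell composition in the Acsm3 level was not tested. Of 7 liver and kidney markers, 6, among them Alb, Ttr, Umod and Kap, were detected on no array, and Apoa1 was detected on chow alone (5.65).

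Of the 17 other acyl-CoA synthetase genes listed, 9 had a detected probe. In HFD-Ve against chow 3 were lower and none higher (11.7% and 15.1% of all genes), with a median of -0.53. Relative to chow, HFD-Rapa had 5 lower and 1 higher (19.5% and 20.5% of all genes), with a median of -0.68, and the gene called higher, Slc27a6, was not detected on chow and is not past 1.5-fold as a bound. Between the HFD arrays 4 were lower in HFD-Rapa and none higher (7.56% and 8.55% of all genes), with a median of -0.46. The largest differences were those of enzymes of the cytosol. Acss2, which makes acetyl-CoA from acetate for fatty acid synthesis, gave 13.79, 11.98 and 10.85, log2 differences of -1.81 in HFD-Ve and -2.94 in HFD-Rapa from chow. Aacs, which activates acetoacetate, gave 13.00, 11.09 and 10.07. Both stepped down from chow through HFD-Ve to HFD-Rapa by over 1 log2 unit at each step. Acsf3, the mitochondrial malonyl-CoA synthetase, gave 8.51, 7.52 and 6.78, and Aasdh, a distant relative of the family, differed from chow by -0.56 in HFD-Ve. Slc27a1, a fatty acid transport protein with synthetase activity, gave 10.96, 10.44 and 9.73. Acsm1, Acsm2, Acsm4, Acsl6, Acsbg1, Acsbg2, Slc27a2 and Slc27a5 had no detected probe.

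**Figure D3:**
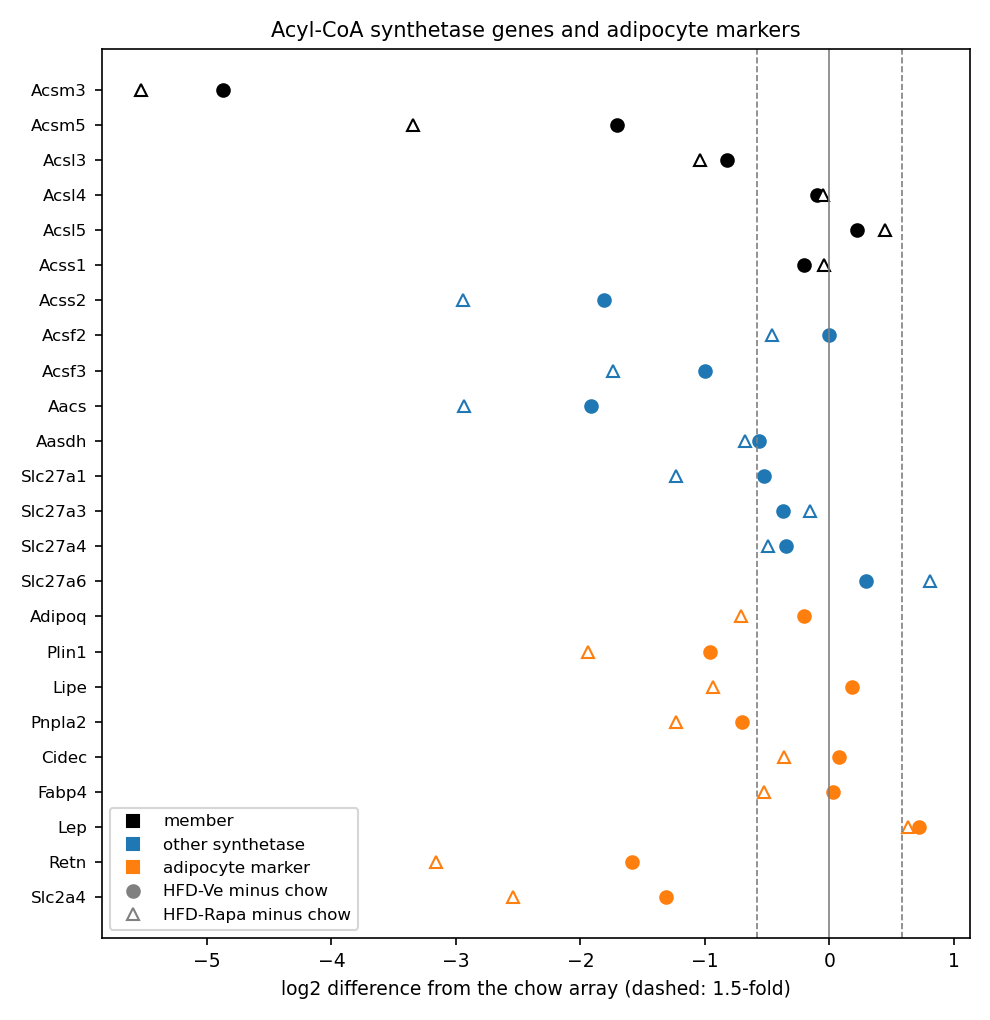
Log2 difference from the chow array (horizontal axis) of HFD-Ve (circles) and HFD-Rapa (triangles) for the 6 measured members, 9 other acyl-CoA synthetases and 9 adipocyte markers, 1 gene per line, with dashed lines at 1.5-fold. Acsm3, at -4.87 and -5.53, lies to the left of every other gene drawn. Detection is not marked. Acsm5 and Retn were not detected on HFD-Rapa and Slc27a6 was not detected on chow, so points that use these signals are not measured differences.

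The genes that use or remove acyl-CoA were described in the same way, with differences on the log2 scale, and their counts are to be read against the same shares of all genes. Thioesterases split acyl-CoA again, and 11 were measured. Of these 2 were lower and 1 higher in HFD-Ve against chow, 2 lower and 3 higher in HFD-Rapa against chow, and 2 higher in HFD-Rapa against HFD-Ve, with medians of 0.00, 0.19 and 0.19. The shares of all genes in these comparisons were 11.7%, 19.5% and 7.56% lower and 15.1%, 20.5% and 8.55% higher. Both pairs of counts from chow are near what these shares give for 11 genes. The peroxisomal Acot4 (-1.91) and Acot6 (-0.62) were lower in HFD-Ve than in chow, while Acot9 (0.89) was higher. Between the HFD arrays Acot11 (0.99) and Acot1 (0.81) were higher with rapamycin. Acot1 and Acot2 are near-identical copies, so their probes may share signal.

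The carnitine shuttle carries acyl groups into mitochondria, and 6 of its genes were measured. Of these 1 was lower and 1 higher in HFD-Ve against chow, 2 lower and 1 higher in HFD-Rapa against chow, and 1 lower between the HFD arrays, with medians of -0.01, -0.29 and -0.45. The shares of all genes in these comparisons were 11.7%, 19.5% and 7.56% lower and 15.1%, 20.5% and 8.55% higher. The counts are near what these shares give for 6 genes. The gene higher in HFD-Ve was Cpt1b (1.25), the muscle-type transferase of the outer membrane, and the lower one was Crat (-0.99). Cpt2, the inner membrane enzyme, was level between HFD-Ve and chow (0.03) and lower with rapamycin than with vehicle (-0.72). Cpt1a had no detected probe.

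Among 9 measured acyl-CoA and fatty acid binding genes, 1 was lower and 1 higher in both comparisons with chow, which share the chow array, and 1 was lower between the HFD arrays, with medians of 0.03, -0.06 and -0.06. Over all genes 11.7% were lower and 15.1% higher in HFD-Ve against chow, and 19.5% and 20.5% in HFD-Rapa against chow. Between the HFD arrays these shares were 7.56% and 8.55%. Fabp5, a fatty acid carrier, was higher in HFD-Ve (0.86) and in HFD-Rapa (1.09) than in chow. Scp2, a peroxisomal carrier and thiolase, was lower in HFD-Ve than in chow (-0.63) and again between the HFD arrays (-0.61).

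The acyltransferases that place acyl groups from acyl-CoA on glycerol lipids had 15 measured genes. In HFD-Ve 5 were lower and 4 higher than in chow, in HFD-Rapa 7 were lower and 3 higher than in chow, and between the HFD arrays 6 were lower and 1 higher with rapamycin, with medians of -0.12, -0.19 and -0.33. At the bounds of genes not detected on chow, the higher genes were 2 in each comparison with chow. For the 3 comparisons in turn, 11.7%, 19.5% and 7.56% of all genes were lower, and 15.1%, 20.5% and 8.55% higher. Gpam, the mitochondrial enzyme of the initial step, was lower in HFD-Ve than in chow (-1.53) and again between the HFD arrays (-1.08). Agpat2 and Dgat1, of triglyceride synthesis, were lower in HFD-Ve than in chow (-0.74 each), and Agpat3 was higher (0.96). With rapamycin Gpat3 (-1.27), Agpat2 (-1.18) and Mogat2 (-0.78) were lower than in HFD-Ve. Under median scaling the HFD-Ve split turned to 1 lower and 4 higher.

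Acyl-CoA dehydrogenases and oxidases take up acyl-CoA, not all of them in the beta-oxidation of fatty acids, and 10 were measured. None was higher in any comparison, and 2, 6 and 4 were lower in HFD-Ve against chow, HFD-Rapa against chow and HFD-Rapa against HFD-Ve, with medians of -0.14, -0.79 and -0.52. Of all genes 11.7%, 19.5% and 7.56% were lower in these comparisons, and 15.1%, 20.5% and 8.55% higher. The lower genes in HFD-Ve were Acad10 (-1.45) and Acad12 (-1.04). With rapamycin Acadsb (-0.89), Acad9 (-0.79), Acadvl (-0.75) and Acad8 (-0.64) were lower than in HFD-Ve.

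Propionyl-CoA, the product of ACSS3, is handled by a short pathway of which 4 genes were measured. None was higher, and 1, 4 and 2 were lower in the same comparisons, with medians of -0.41, -1.13 and -0.80. The shares of all genes lower there were 11.7%, 19.5% and 7.56%, and those higher 15.1%, 20.5% and 8.55%. Pccb and Pcca encode the subunits of propionyl-CoA carboxylase. Pccb was lower in HFD-Ve than in chow (-0.74), and with rapamycin Pccb (-1.07) and Pcca (-1.06) were below their HFD-Ve levels. Mcee, the epimerase of the next step, stayed within 1.5-fold between the HFD arrays (-0.16).

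Acsm3 and Acsm5 lie on chromosome 7, and between them in RefSeq order are Acsm2, Acsm1, Acsm4, Thumpd1 and Ppp1ccb. The other members lie on other chromosomes, Acsl3 on 1, Acsl4 on X, Acsl5 on 19, Acss1 on 2 and Acss3 on 10. Of 13 genes in the window from 3 genes before Acsm5 to 3 after Acsm3, 6 had a detected probe. Thumpd1, between them, gave 9.95, 9.53 and 9.59, within 1.5-fold of chow on both HFD arrays. Of the genes after Acsm3, Eri2 gave 6.62, 6.20 and 6.08 and Rexo5 gave 6.28 and 5.51 and was not detected on HFD-Rapa (5.07). Dcun1d3 gave 8.24, 8.07 and 7.40. None of the measured neighbours, Thumpd1, Eri2, Rexo5 and Dcun1d3, came near the difference of Acsm3. The largest among them was that of Rexo5, -0.77 in HFD-Ve and at least 2.03-fold lower in HFD-Rapa. Dcun1d3 was 1.80-fold lower in HFD-Rapa than in chow. The rest of the window, apart from Acsm3 and Acsm5, had no detected or named probe and gives no direction.

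**Figure D4:**
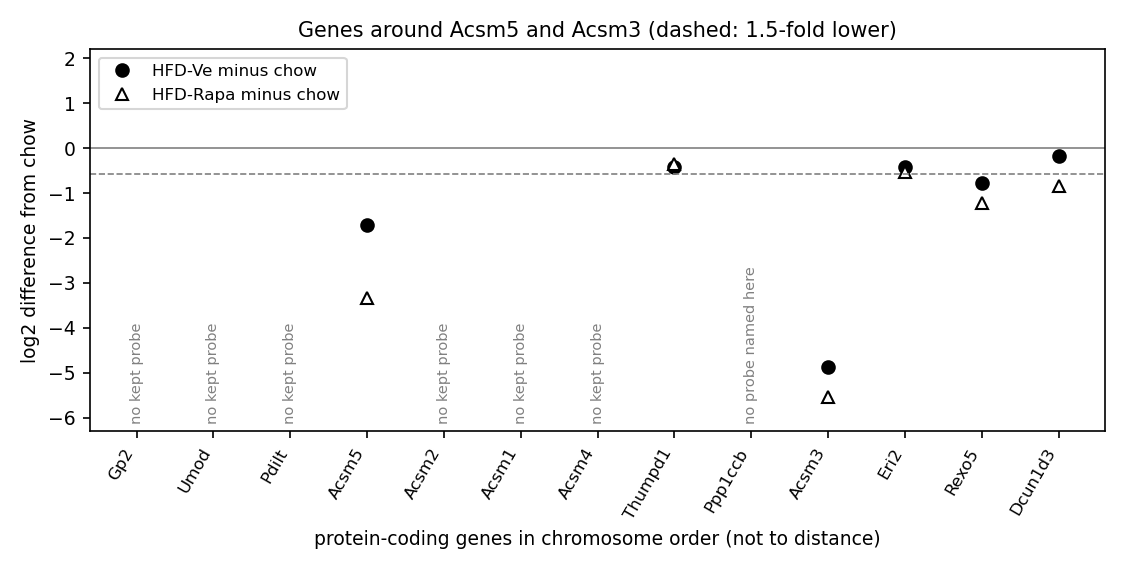
Log2 difference from the chow array (vertical axis) of HFD-Ve (circles) and HFD-Rapa (triangles) for 13 genes of chromosome 7 in order (horizontal axis, not to distance), with a dashed line at 1.5-fold lower. Acsm3 and Acsm5 lie far below the line, Thumpd1 between them lies above it, and 7 genes had no detected or named probe. Detection is not marked, and the triangles of Acsm5 and Rexo5 use signals not detected on HFD-Rapa.

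The 3 genes whose differences from chow on the HFD-Ve and HFD-Rapa arrays lay nearest to those of Acsm3, among 9716 genes detected on chow, were Cyp2f2, Elovl6 and Agt. The distance is the Euclidean one over the 2 log2 differences, 0.76 for Cyp2f2, 1.49 for Elovl6 and 1.80 for Agt. Cyp2f2, a cytochrome P450, gave 11.38, 7.26 and 5.85. Elovl6, the elongase of palmitate, gave 12.35, 8.86 and 7.39, and Agt, which encodes angiotensinogen, gave 10.47, 6.88 and 6.21. Since Acsm3 had the lowest difference of all genes in HFD-Ve, all 3 necessarily dropped less there. In HFD-Rapa the difference from chow was -5.53 for both Cyp2f2 and Acsm3, -4.96 for Elovl6 and -4.27 for Agt. The order rests on 3 arrays. For Acsl4, whose differences are near 0, the nearest were Btg1, Zdhhc13 and Phf6, as many genes lie close to 0.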

How the data were processed

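RNA from 3 pools was read on Illumina Mouse WG-6 bead arrays. The authors exported probe intensity with a detection p-value for each probe and array from GenomeStudio, and the deposited intensities were not normalised. The authors' processed values, deposited on a linear intensity scale, served as an alternative. The background was corrected from the detection p-values with nec of limma 3.58.1 (offset 16, R 4.3.3), followed by quantile normalisation and log2. A filter removed probes that no array detected at a p-value under 0.01, which left 18954, and each gene was represented by its brightest remaining probe. The platform annotation named a single gene for 34885 probes and several for 18, and 10378 probes were not listed. Where a probe was not detected on the dimmer array, the fold was given as at least the brighter signal over the higher of the lowest detected signal and the probe's own. With 1 array for each group no test was made. Genes at 1.5-fold, the fold the study names for its pathway analysis, were counted beside all genes. Named were every Acsm3 probe, kept probes of the other members, up to 4 genes of each list with the largest difference in 2 comparisons, and 3 nearest genes. The members and lists were chosen with earlier results of these data known. The fold calculation was tested on simulated data, with known changes given to genes chosen from bright probes. It was therefore not tested for folds that reach the background, such as those of Acsm3 and Acsm5. Arrays give no read depth, and their number sets a limit on the precision. Sequences came from RefSeq on GRCm38.p6. In 10 repeats a single choice was changed each time: the background left in, the offset raised to 50, scaling by the 75th percentile or by the median, the processed values, a detection p under 0.05, detection on all 3 arrays, no detection filter, the mean of kept probes and a 2-fold threshold.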

Additional observations from a re-analysis of the deposited data

How the results depend on the processing

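Of 159 alternative values of the members' log2 differences, 152 kept their sign and 155 kept their side of 1.5-fold, the exception being Acsm3 in HFD-Rapa against HFD-Ve (range -0.75 to -0.31). This tally includes values that could not move. A change of the detection filter left each member's brightest probe, and so each value given, as it was. The mean of the kept probes likewise equals the main value for Acsl3 and Acss1, which had 1 kept probe each. Acsm3 ranged from -4.93 to -3.85 in HFD-Ve and from -5.56 to -4.26 in HFD-Rapa against chow, and Acsm5 from -1.74 to -1.14 and from -3.35 to -1.80. The count of members in HFD-Rapa against HFD-Ve, 2, was 1 with no background correction, an offset of 50, the authors' processed values, detection on all 3 arrays, the mean of the kept probes or a 2-fold threshold.

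Of 210 alternative counts of the related lists, 181 were within 1.5 times the count given. Without background correction the count was 4 for acyltransferases in HFD-Rapa against HFD-Ve (7) and 1 for thioesterases in HFD-Ve against chow (3). With the authors' processed values these were 3 and 1. With the 75th percentile shift the binding genes in HFD-Rapa against HFD-Ve were 0 (1). With the mean of the kept probes the binding genes in HFD-Ve against chow were 1 (2) and the thioesterases in HFD-Rapa against HFD-Ve 1 (2). With median scaling, in HFD-Ve against chow the acyltransferases were 5 (9), the binding genes 1 (2) and the propionyl-CoA genes 0 (1), and in HFD-Rapa against HFD-Ve the dehydrogenases were 7 (4), the carnitine genes 2 (1) and the binding genes 2 (1). With the 2-fold threshold, HFD-Ve against chow had these counts: the acyltransferases were 1, the binding genes 0, the thioesterases 1, the carnitine genes 1 and the propionyl-CoA genes 0. At 2-fold in HFD-Rapa against chow the acyltransferases were 6, the dehydrogenases 3, the thioesterases 2, the carnitine genes 1 and the propionyl-CoA genes 2. At 2-fold in HFD-Rapa against HFD-Ve the other synthetases were 2, the acyltransferases 3, and the dehydrogenases, thioesterases, carnitine and binding genes 0 each. The cause was not tested.

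Median scaling moved the median of all genes in HFD-Ve against chow from -0.05 to 0.15, and the share of calls that were higher from 56.3% to 76.8%. In HFD-Rapa against HFD-Ve that share moved from 53.1% to 36.0%. Over all genes 2839 were called in HFD-Ve against chow, and 1671 without background correction, 1651 with the authors' processed values and 1183 with the 2-fold threshold. In HFD-Rapa against HFD-Ve it was 1709, and 887, 889 and 391 in the same order. In HFD-Rapa against chow 4247 became 2817, 2788 and 2117.

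No paired analysis was possible because each group has 1 array, which also means that no array was left out in turn. Signal over background limits Acsm3 on the HFD arrays, where its brightest probe had 182 and 136 against array medians of 107 and 103, and without background correction its log2 differences from chow were -4.04 and -4.36. The spread between mice was not measured.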
